A study of Mus musculus with 10 samples.

Results

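Complement and coagulation genes were followed as a set of 51 mouse genes in RNA-seq of sorted liver cells. The 51 were taken by name, 27 from the coagulation system and 24 from the complement system, out of 29972 genes in the deposited tables. Of the 51, 47 reached at least 1 TPM (an abundance per transcript that takes account of its length and sums to the same total in every library) in at least 3 libraries and could be tested, among 14765 genes tested in all. Klkb1, Cfd, C6 and Cd46 did not reach that level. For 3 of the 47, F7, F11 and C8a, fewer than 3 libraries outside hepatocytes reached 1 TPM, so these genes could be tested only through their level in hepatocytes. Thbd reached 1 TPM only in HpC and could be tested only through its level there.

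Coagulation is a chain of serine proteases that ends in thrombin, which turns fibrinogen into fibrin. It starts when tissue factor on a cell surface meets factor VII, and is held back by inhibitors and by the protein C system. Complement is a second protease chain of plasma, entered through the classical, lectin or alternative pathway, in which C3 is cleaved and a pore of terminal components can form on a target. Hepatocytes make most of the plasma proteins of both systems, while cholangiocytes, the cells that line bile ducts, are not known for secreting them in bulk.

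The libraries came from mice of mixed C57BL/6, FVB and CD1 strain. In 4 libraries, HpC1 to HpC4, the cells were peripheral cholangiocytes that derive from hepatocytes, from mice of genotype Alb-Cre+/-;Rbpjf/f;Hnf6f/f aged P124, P151, P144 and P139. In 3 libraries, pC1 to pC3, they were ordinary peripheral cholangiocytes from Rbpjf/f;Hnf6f/f mice without Cre, aged P151, P119 and P142. In 3 libraries, H1 to H3, they were hepatocytes of the Cre genotype, aged P134, P139 and P139, where P counts days after birth. HpC and H therefore share Cre and both floxed alleles, of Rbpj, which carries Notch signals to DNA, and of Hnf6, a transcription factor of bile duct formation. HpC and pC differ in genotype as well as in origin, and these cannot be told apart. Cre was driven by the albumin promoter, which is active in hepatocytes and their fetal precursors. Both cholangiocyte groups were sorted from the nonparenchymal fraction after a longer digestion than hepatocytes, so cell type and isolation cannot be told apart in comparisons with H. H2 and H3 have the same age and might be from a single mouse, which no label settles. If so, H holds fewer mice than libraries, and p-values involving H may be too small. The tests share a single estimate of the spread over all 10 libraries, so p-values of HpC against pC may be affected too. Levels are given as scaled TPM, which is TPM divided by a factor per library that sets most genes level between libraries.

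The number of reads behind each library is unknown. Marker genes were read against the labelled cell types. All 10 cholangiocyte markers tested were higher in HpC and in pC than in H (limma, 5% false discovery rate). At that rate 3 of them, Spp1 and Anxa4 included, were lower in HpC than in pC. At an unadjusted limma p under 0.05, 5 were lower in HpC and 2 higher. Their summed level was 1700 to 3154 scaled TPM in HpC and 5549 to 5733 in pC. All 12 hepatocyte markers were lower in both groups than in H. None of the 12 differed between HpC and pC at the 5% false discovery rate (1 higher and 0 lower at an unadjusted p under 0.05). The summed level of hepatocyte markers was nevertheless 2932 to 5895 scaled TPM in HpC and 977 to 2684 in pC. HpC1 and HpC2 stood apart from the other libraries. HpC1 held 267344 scaled TPM of 12 pancreatic acinar genes, against at most 1143 elsewhere. HpC2 held 39750 of 10 stratified squamous epithelium genes, against at most 12.8 elsewhere. Mesothelial markers summed to 33.1 to 54.6 in HpC and 24.3 to 30.9 in pC, with 3 of 6 higher in HpC and 1 lower (5 and 1 at an unadjusted p under 0.05). Stellate cell and fibroblast markers summed to 31.3 to 97.0 in HpC and 22.2 to 31.5 in pC, with 1 of 9 higher (5 higher and 0 lower at an unadjusted p under 0.05). Endothelial markers (10.5 to 25.7 and 12.0 to 17.1), and macrophage markers (14.5 to 40.2 and 25.5 to 31.2), had no gene past the threshold between HpC and pC, and none at an unadjusted p under 0.05. B cell markers summed to 64.0 to 593 in HpC and 6.42 to 78.7 in pC. The 9 mitochondrial genes taken as a sign of RNA quality summed to 13303 to 16419 in HpC, 10615 to 13121 in pC and 65080 to 78450 in H, so that the groups did not overlap. All 9 were lower in both cholangiocyte groups than in H, and none passed between HpC and pC (limma; 3 higher and 0 lower at an unadjusted p under 0.05). The part of these other cells and of RNA quality in the results below was not tested.

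Promoter sequence was available in RefSeq for 41 of the 51 genes, as the 250 bases before the start on build GRCm38.p6. Shown here are 3 members that were higher in HpC than in pC (Kng2, C1s1 and C3) and 2 clotting genes that were not (Hrg, which lies beside Kng2, and Fgb). Capitals mark matches, on either strand, to TTGCNNAA, a C/EBP motif, and TGGGAA, the core of the motif bound by RBPJ. C/EBP factors are known to act on many plasma protein genes of the liver. The windows lie at chr16:23029102-23029351 (minus strand) for Kng2, chr6:124542360-124542609 (minus) for C1s1, chr17:57228137-57228386 (minus) for C3, chr16:22950822-22951071 (plus) for Hrg and chr3:83049864-83050113 (minus) for Fgb, and each is written 5′ to 3′ along its gene. The RefSeq start of Kng2 lies inside the gene as GENCODE M21 places it, so its window is downstream of that annotated start.
Kng2: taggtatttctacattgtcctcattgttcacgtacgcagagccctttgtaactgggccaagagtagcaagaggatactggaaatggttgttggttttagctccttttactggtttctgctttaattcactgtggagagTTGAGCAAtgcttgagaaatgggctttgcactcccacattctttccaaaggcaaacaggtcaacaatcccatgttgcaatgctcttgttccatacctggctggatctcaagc
C1s1: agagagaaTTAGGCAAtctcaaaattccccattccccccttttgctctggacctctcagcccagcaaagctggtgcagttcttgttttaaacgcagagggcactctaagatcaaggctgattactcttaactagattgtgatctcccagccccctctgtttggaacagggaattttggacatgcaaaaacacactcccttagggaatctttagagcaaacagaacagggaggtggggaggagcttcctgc
C3: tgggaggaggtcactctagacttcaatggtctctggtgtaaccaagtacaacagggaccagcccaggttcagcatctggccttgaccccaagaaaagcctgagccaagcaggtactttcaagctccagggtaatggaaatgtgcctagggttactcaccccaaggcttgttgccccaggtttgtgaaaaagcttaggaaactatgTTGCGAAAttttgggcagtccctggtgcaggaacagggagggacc
Hrg: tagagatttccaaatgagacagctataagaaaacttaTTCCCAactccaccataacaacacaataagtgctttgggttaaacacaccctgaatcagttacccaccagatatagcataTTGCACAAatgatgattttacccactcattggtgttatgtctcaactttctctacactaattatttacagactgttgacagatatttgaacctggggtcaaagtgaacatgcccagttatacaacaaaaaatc
Fgb: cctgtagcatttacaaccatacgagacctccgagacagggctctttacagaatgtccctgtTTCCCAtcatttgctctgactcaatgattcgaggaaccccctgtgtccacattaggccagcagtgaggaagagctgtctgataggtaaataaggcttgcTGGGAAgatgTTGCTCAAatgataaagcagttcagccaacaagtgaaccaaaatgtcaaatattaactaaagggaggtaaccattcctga

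The C/EBP match begins at position -112 from the start in Kng2, -242 in C1s1, -45 in C3, -133 in Hrg and -80 in Fgb. TGGGAA matches begin at -213 in Hrg and at -189 and -90 in Fgb, and none of these matches overlap in these windows. Over the members, 10 of 41 windows (24.4%) held TTGCNNAA, against 9.56% of all 32851 RefSeq windows of the same length. TGGGAA was in 12 of 41 (29.3%) against 21.6% of all. ATTGAT, a form of the HNF6 motif, was in 5 of 41 (12.2%) against 6.72%. TTCCNGGAA, a STAT3 motif, was in 2 of 41 (4.88%) against 0.913%. Among the 6 members higher in HpC than in pC that have a window, 3 held the C/EBP motif and none held any of the other motifs given here. These 3 are the ones shown, while Serpind1, Cpb2 and Cd55, whose windows held none of these motifs, are not shown. Hrg and Fgb both hold TGGGAA, which most members lack. The windows shown are therefore no basis for a contrast of motifs. These are matches of letters in a window, with no measure of binding.

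Set against hepatocytes, both kinds of cholangiocyte held most of these transcripts at low levels. In HpC, 41 of 47 members were lower than in H and 5 were higher (limma, 5% false discovery rate), where 29.2% and 30.7% of all tested genes were. In pC, 40 were lower and 5 higher, where 28.6% and 31.1% of all genes were. F7, F11 and C8a, counted as lower, entered the test only through H. F8, Tfpi, Thbd, Cd55 and Cfp, counted as higher in either group, reached 1 TPM in no H library and entered only through cholangiocytes. The filter thus favoured the directions of these members. The median log2 difference over the 47 was -4.69 for HpC minus H and -5.35 for pC minus H, beside 0.08 and 0.11 over all genes. HpC and pC are set against the same H libraries here. In tissue-sorted bulk RNA, fewer hepatocytes among the sorted cells and less RNA per cell cannot be told apart. Together the 51 genes took 1.91% to 2.25% of deposited TPM in H, 0.266% to 0.520% in HpC and 0.187% to 0.279% in pC. C3 alone made up 0.161% to 0.330% in HpC, more than the 50 other genes together in each HpC library.

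Between the 2 kinds of cholangiocyte, 8 of the 47 members (17.0%) were higher in HpC and none was lower, where 1.99% of all genes were higher and 2.55% lower. The 8 were Masp1, Kng2, Serpind1, Cpb2, C1s1, Cd55, C3 and Cfb, of which 5 belong to complement and 3 to coagulation. At an unadjusted limma p under 0.05, 20 members were higher and 3 lower, where 7.87% and 9.9% of all genes were. Of the 39 other members, 29 also had a positive estimate, and the median over the 47 was 0.95 on the log2 scale, beside -0.01 over all genes. Of all genes not called, 6912 had a positive estimate and 7182 a negative one. The 12 hepatocyte markers had a median of 0.63, with 11 estimates positive and 1 negative, and 19 acute phase protein genes a median of 0.67. A positive lean was thus not particular to the members. Levels of the 4 HpC libraries lay wholly above the 3 pC libraries for 13 members, and wholly below for Pros1, where 6.78% and 9.73% of all genes did so. Besides the 8, those 13 are Fga, Fgg, Thbd, C9 and C4bp. Thbd could be tested only through its level in HpC, so its part in these counts is not evidence of a difference. The count of 8 was 8 without HpC1 and HpC2 together, but with Kng2 lost and F3 gained. It was 15 without HpC4, and 5 without pC1 or without pC2. All genes higher were 316, 347, 159 and 138 in these fits, in that order, against 294 at first. Without any rescaling of TPM between libraries the median of all genes moved by -0.35, 0.79 and 1.09 on the log2 scale in HpC minus pC, HpC minus H and pC minus H. Of the genes called in these comparisons, 26.1%, 83.3% and 88.2% were then higher, against 43.8%, 51.2% and 52.1% on scaled TPM. The members' counts on TPM as deposited are in the closing section.

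**Figure D1:**
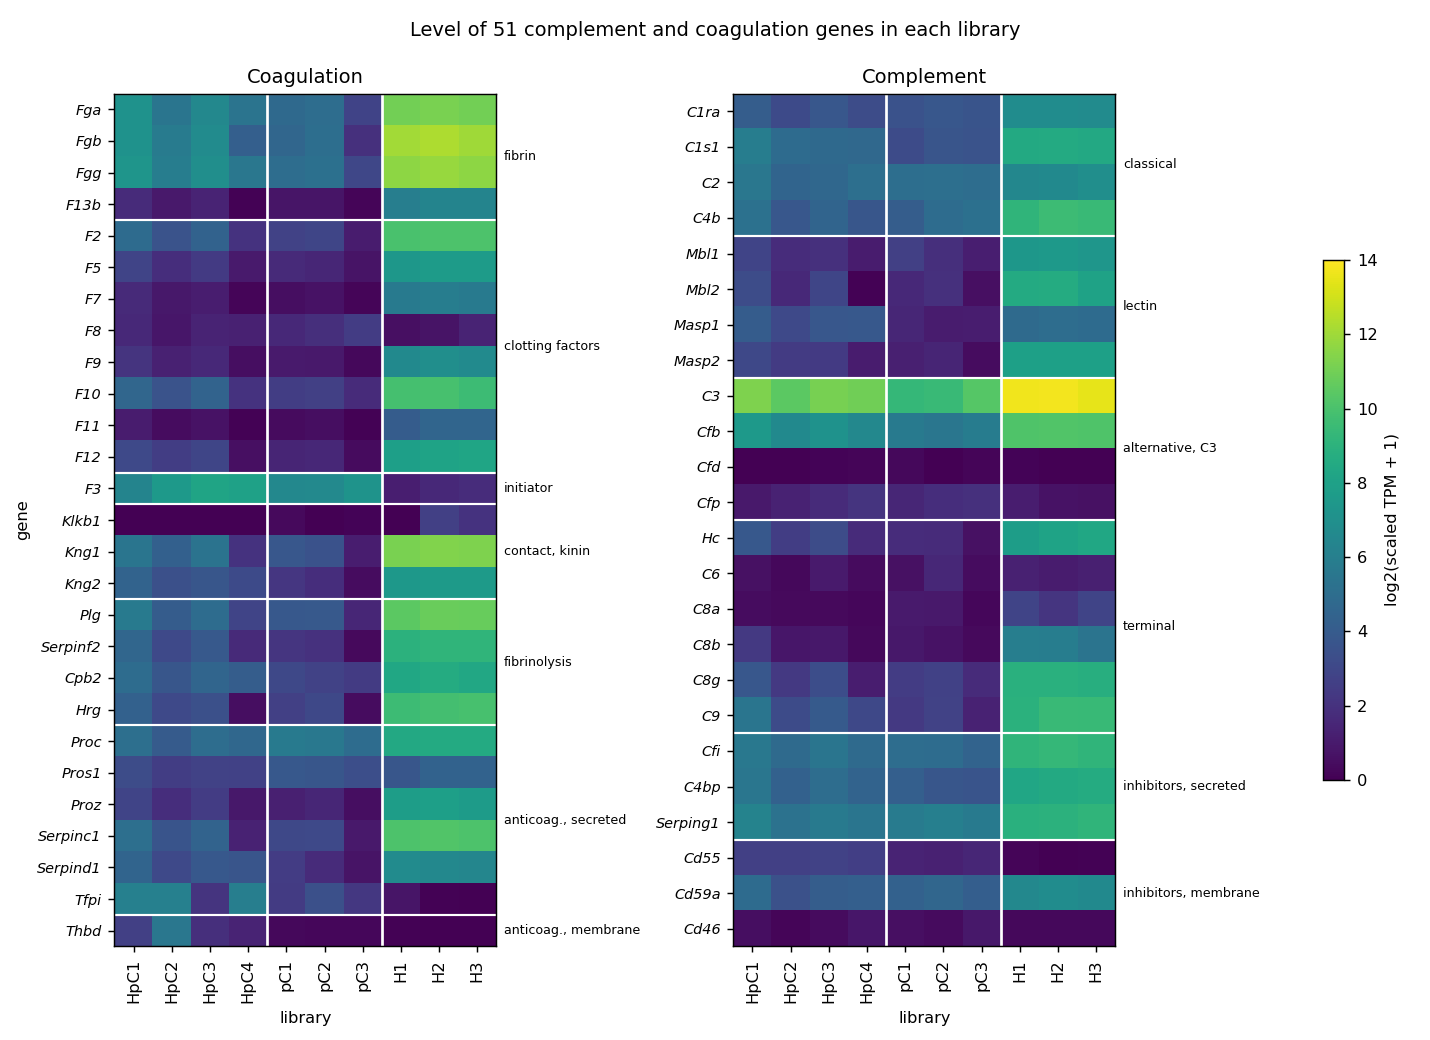
Level of each of the 51 genes (rows, grouped by role) in each of the 10 libraries (columns), as log2(scaled TPM + 1), with coagulation on the left and complement on the right. Most rows are brightest in H1 to H3; F3, Tfpi, Thbd, Cd55 and, at low levels, F8 and Cfp are brightest in cholangiocytes, and C3 is the brightest row in every library.

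**Figure D2:**
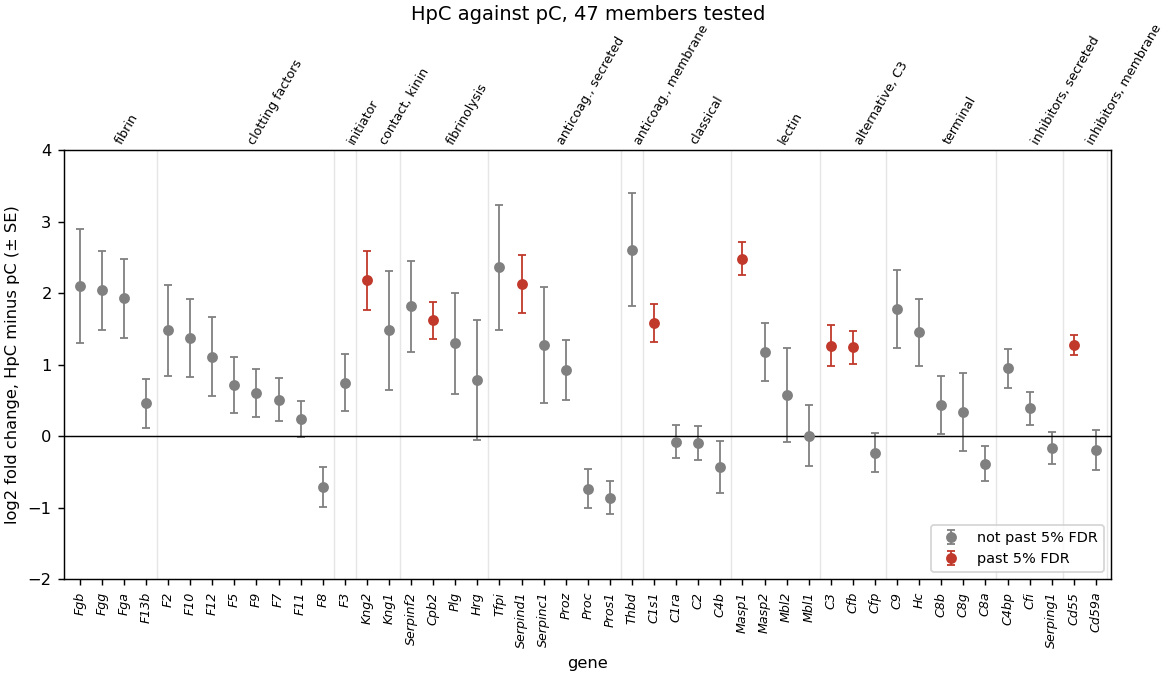
Log2 fold change of HpC minus pC with its standard error for the 47 members tested, grouped by role and ordered within a role. Red points passed the 5% false discovery rate (limma, adjusted over 14765 genes); all 8 lie above 0, between 1.24 and 2.48.

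In the lectin pathway, Masp1 set HpC apart from pC by the largest difference of any member that passed. Masp1 encodes a protease that travels with mannose-binding lectin and starts the lectin pathway. Masp1 (ENSMUSG00000022887, mm10 chromosome 16, 23449417 to 23520815, minus strand) measured 16.1, 7.40, 12.8 and 13.4 scaled TPM across HpC1 to HpC4, 1.79, 1.09 and 1.16 across pC1 to pC3 and 27.8, 30.6 and 28.7 across H1 to H3. The 3 groups did not overlap. On the log2(scaled TPM + 1) scale HpC exceeded pC by 2.48 ± 0.23 (SE; limma adjusted p = 0.000626), the mean being 9.22 times that of pC, and this passed under every alternative tried. HpC minus H was -1.21 ± 0.23 (adjusted p = 0.00116), a difference that was lost on TPM as deposited. A single Masp1 transcript of the 4 annotated is in the tables, so that forms of the gene cannot be separated.

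The other lectin pathway members were far below hepatocytes in both cholangiocyte groups, and none passed between HpC and pC. Masp2, the protease that cleaves C4 and C2, spanned 1.11 to 7.34 in HpC, 0.391 to 1.74 in pC and 243 to 252 in H. The mannose-binding lectin gene Mbl1 spanned 1.06 to 6.39, 1.26 to 5.38 and 161 to 187 in the same groups, and its relative Mbl2 spanned 0.0772 to 8.42, 0.507 to 2.85 and 269 to 385. The Mbl1 level rests on 1 transcript of the 2 annotated, of the nonsense-mediated-decay type. Reads of 50 bases cannot place all of Masp2, since 52.5% of its 50-base windows also occur in transcripts of the overlapping gene Tardbp.

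In the classical pathway, C1s1 was higher in HpC while its neighbour C1ra was not. Their products are the pair of proteases of the C1 complex. C1s1 (ENSMUSG00000038521, chromosome 6, 124530345 to 124542359, minus strand) measured 59.1, 28.8, 26.3 and 25.5 scaled TPM across HpC1 to HpC4, 8.35, 11.9 and 10.8 across pC and 364, 383 and 350 across H. Every HpC library was above every pC library, with HpC1 well above the other 3 on scaled TPM. HpC1 had a scaling factor of 0.668, against 1.15 to 1.61 in the others. On TPM as deposited, HpC1 lay within the range of the other HpC libraries. The difference was 1.59 ± 0.27 (SE; limma adjusted p = 0.00951), and was lost without pC1 (adjusted p = 0.0526). Of its 50-base windows 35.1% also occur in other genes. Its copy C1s2, which was at most 0.429 scaled TPM in any library, shares 21.8%. The part of the other genes that share windows was not tested.

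C1ra (chromosome 6, 124512405 to 124523443, plus strand) measured 16.3, 7.71, 13.2 and 8.53 across HpC, 10.5, 12.9 and 11.6 across pC and 113, 110 and 106 across H. HpC and pC overlapped, and differed by -0.08 ± 0.23 (limma adjusted p = 0.891). The neighbours on chromosome 6 thus gave different calls between HpC and pC, although the difference between the 2 genes was not itself tested. C2 and C4b, which form the C3-cleaving enzyme of this pathway, lie with Cfb on chromosome 17. C2 measured 45.8, 21.9, 24.3 and 33.4 across HpC, 32.1, 33.1 and 31.1 across pC and 87.1, 99.7 and 118 across H. C4b measured 36.0, 12.9, 21.7 and 12.6 across HpC, 16.7, 30.2 and 34.3 across pC and 562, 763 and 717 across H. Neither differed between HpC and pC past the threshold (log2 -0.09 ± 0.23 and -0.43 ± 0.37; limma adjusted p = 0.875 and 0.590), and 34.6% of C4b windows are shared with C4a.

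In the alternative pathway, C3 and Cfb were both higher in HpC than in pC. C3 is the central component on which all 3 pathways converge, and factor B supplies the protease of its amplification loop. C3 (ENSMUSG00000024164, chromosome 17, 57203970 to 57228136, minus strand) had the highest level of the 51 in every group, and its mean was 2044 ± 483 scaled TPM for HpC (SD, n = 4), 870 ± 349 for pC (n = 3) and 12841 ± 1106 for H (n = 3). By library it measured 2518, 1400, 2280 and 1979 across HpC1 to HpC4, 633, 705 and 1270 across pC1 to pC3 and 13347, 13603 and 11572 across H1 to H3. The lowest HpC library, HpC2, was close to the highest pC library, pC3. The difference of HpC and pC was 1.27 ± 0.29 (limma adjusted p = 0.0345), the weakest of the 8. It was lost under 12 of 25 alternatives, among them the removal of HpC1, HpC3, HpC4, pC1, pC2 or any H library (adjusted p up to 0.165 over these) and the use of TPM as deposited (0.230). A short C3 transcript of 315 bases held 39.9% of the C3 level in HpC, 40.5% in pC and 40.5% in H, and short transcripts raise a sum of TPM, so the level of C3 against other genes is less certain than its ratio between groups.

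Cfb (ENSMUSG00000090231, chromosome 17, 34856374 to 34862518, minus strand) measured 184, 100.03, 141.7 and 92 scaled TPM across HpC, 54.4, 43.8 and 58.8 across pC and 1114, 1197 and 1136 across H. All HpC libraries were above all pC libraries. The difference was 1.24 ± 0.23 (limma adjusted p = 0.0156), and was lost without pC1 (0.0582), without pC2 (0.0908) and on TPM as deposited (0.145). Of Cfb's windows 73% also occur in the read-through gene Gm20547, which spans C2 and Cfb and stood at 2.64 to 9.42 in HpC and 2.23 to 4.33 in pC. With the reads of both summed the difference was 1.23 (adjusted p = 0.0144).

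The 2 other members of the alternative pathway were near the lower limit of the tables. Cfp encodes properdin, which stabilises the alternative C3-cleaving enzyme and is known as a product of leukocytes. It measured 0.919, 1.53, 2.28 and 3.25 across HpC, 1.85, 2.54 and 2.77 across pC and 1.21, 0.617 and 0.564 across H. Both cholangiocyte groups passed as higher than H, by 0.69 ± 0.27 and 0.92 ± 0.29 (limma adjusted p = 0.0485 and 0.0192), but HpC overlapped H, and those calls were lost under 12 and 5 of 24 alternatives. Cfp entered the comparisons with H only through cholangiocytes. Macrophage markers were also at their lowest in H, summing to 0.344 to 1.12, and their part was not tested. Cfd, the protease that activates factor B and is a known product of fat cells, reached at most 0.229 in any library.

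None of the terminal components, which form the membrane pore, passed between HpC and pC. Hc, the mouse C5 gene, spanned 2.25 to 13.5 in HpC, 0.566 to 2.45 in pC and 218 to 328 in H. C9, which makes the wall of the pore, spanned 7.33 to 43.1, 1.57 to 5.68 and 496 to 707 in the same groups, and its HpC and pC libraries did not overlap (log2 difference 1.78 ± 0.54; limma adjusted p = 0.107). The C8 genes C8a, C8b and C8g were at 0.190 to 0.368, 0.226 to 3.93 and 1.17 to 13.1 in HpC, below H in each case. C6 was between 0.213 and 1.92 in all 10 libraries.

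Among complement inhibitors, the membrane-bound Cd55 was higher in HpC with little spread between libraries, and the secreted ones did not pass. Cd55, decay-accelerating factor, breaks up the C3-cleaving enzymes on a cell's own surface. Cd55 (ENSMUSG00000026399, chromosome 1, 130439027 to 130462744, minus strand) measured 5.40, 5.32, 5.67 and 5.09 scaled TPM across HpC1 to HpC4, 1.62, 1.44 and 1.84 across pC1 to pC3 and 0.123, 0 and 0.0665 across H1 to H3. The order HpC, pC, H held with no overlap. HpC exceeded pC by 1.28 ± 0.14 (limma adjusted p = 0.00102) and H by 2.58 ± 0.14 (2.19e-07), and pC exceeded H by 1.31 ± 0.15 (2.97e-05). On TPM as deposited the first of these was lost (limma adjusted p = 0.0713). Cd55 entered the comparisons with H only through cholangiocytes. A retained-intron transcript held 31.5% of the Cd55 level in HpC and 15.1% in pC.

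Beside Cd55 on chromosome 1 lies C4bp, whose product holds C4b for destruction in plasma. It measured 44.8, 19.3, 30.8 and 21.1 across HpC, 17.6, 12.6 and 11.6 across pC and 311, 361 and 386 across H. The groups did not overlap, but HpC minus pC, at 0.95 ± 0.28, missed the threshold (limma adjusted p = 0.0906), which it passed without HpC2 (0.0445). Serping1, the C1 inhibitor, which also blocks plasma kallikrein, was the third most abundant member in pC, at 55.0, 63.8 and 53.0. It stood at 76.9, 38.0, 54.4 and 41.9 in HpC and at 464, 513 and 581 in H, so that HpC and pC overlapped (log2 difference -0.16 ± 0.23; adjusted p = 0.757). Cfi, which cuts C3b and C4b, spanned 27.5 to 48.3 in HpC, 21.1 to 30.7 in pC and 573 to 635 in H. Cd59a, which blocks the pore, spanned 10.3 to 28.5, 17.0 to 23.2 and 90.2 to 112 in the same groups. Cd46, which in mouse is made mainly in the testis, was at most 0.837 in every library.

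**Figure D3:**
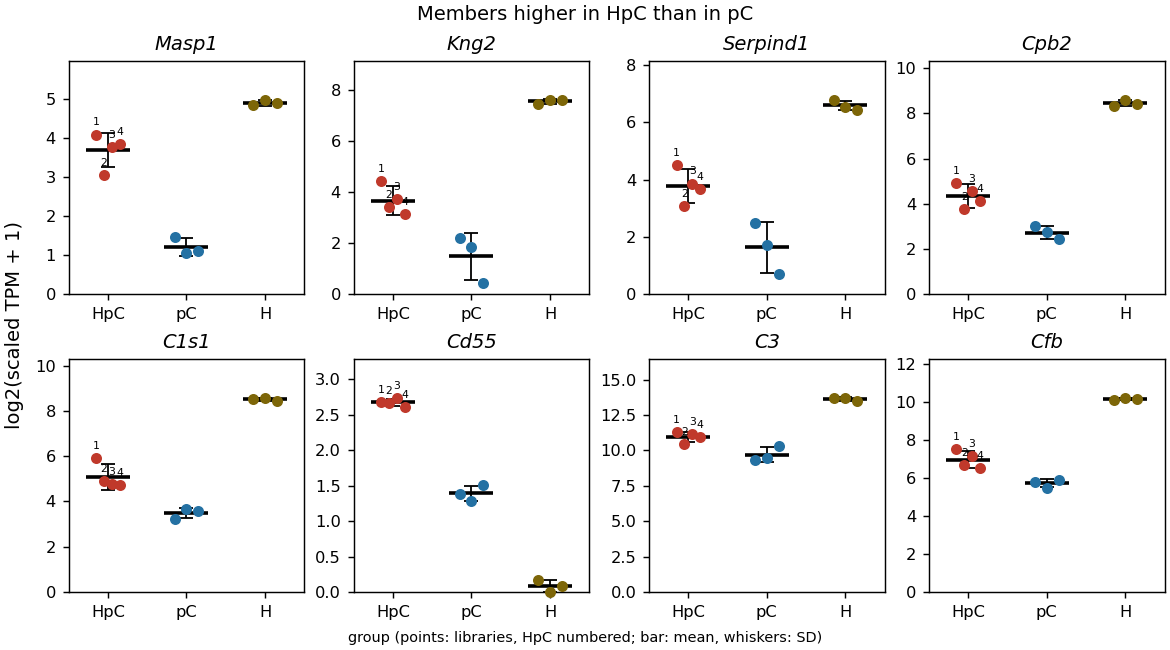
Log2(scaled TPM + 1) of the 8 members that were higher in HpC than in pC, by group; points are libraries (HpC numbered 1 to 4), horizontal bars means and whiskers SD. HpC lies above pC with no overlap in all 8 panels, and below H in all but Cd55, where H is lowest.

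Fibrinogen was the most abundant clotting product in hepatocytes, and its 3 chain genes did not pass between HpC and pC. They lie side by side on chromosome 3 between 83007724 and 83049863. Fgb, the beta chain, measured 138.8, 55.2, 107 and 18 scaled TPM across HpC, 23.6, 32.7 and 2.88 across pC and 4272, 5044 and 4125 across H. Fgg, the gamma chain, measured 159, 59.2, 119.3 and 45.6 across HpC, 30.7, 34.6 and 6.97 across pC and 3182, 3643 and 3112 across H. Fga, the alpha chain, measured 138, 43.1, 91.2 and 40.8 across HpC, 26.6, 30.5 and 6.08 across pC and 2066, 2363 and 2100.2 across H. In each gene pC3 was lowest, and Fgb overlapped between HpC4 and pC while Fga and Fgg did not overlap. The differences were 2.10 ± 0.80, 2.04 ± 0.55 and 1.93 ± 0.55 (SE; limma adjusted p = 0.198, 0.0725 and 0.0881), and Fgg passed without HpC4 (0.0446). The Fgb level was below that of Fgg in all 7 cholangiocyte libraries and above it in every H library.

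None of the clotting factors passed between HpC and pC, and all but F8 were lower than H in both. Prothrombin (F2) spanned 3.13 to 28.8 scaled TPM in HpC, 1.12 to 6.61 in pC and 1022 to 1109 in H. Factor X (F10) spanned 3.10 to 23.7, 2.31 to 5.21 and 778 to 969 in the same groups. Factor V (F5), the cofactor of factor X, ran from 1.01 to 6.36 in HpC and from 0.677 to 2.15 in pC. F7, F9, F11, F12 and F13b each stood at 7.40 or less in every HpC library and at 1.95 or less in every pC library. Factor VIII (F8), a cofactor known as a product of endothelium, measured 2.08, 0.787, 1.59 and 1.40 across HpC, 2.06, 2.67 and 4.52 across pC and 0.495, 0.643 and 1.67 across H. Its level in pC exceeded that in H by 1.08 ± 0.30 (limma adjusted p = 0.0114), while HpC did not differ past the threshold from either. F8 entered the comparisons with H only through cholangiocytes. Endothelial markers summed to 12.0 to 17.1 in pC and 3.58 to 4.85 in H, and their part was not tested.

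In the contact and kinin system, Kng2 was higher in HpC and its near copy Kng1 was not. Mice have these 2 kininogen genes, which encode the precursor of bradykinin. Kng2 (ENSMUSG00000060459, chromosome 16, 22985854 to 23029482, minus strand) measured 20.8, 9.72, 12.2 and 7.80 scaled TPM across HpC, 3.58, 2.60 and 0.376 across pC and 176, 194 and 196 across H. HpC and pC did not overlap, and differed by 2.18 ± 0.41 (limma adjusted p = 0.0151). Kng1 (chromosome 16, 23057865 to 23082078, plus strand) measured 43.0, 18.7, 38.5 and 3.20 across HpC, 12.9, 10.3 and 1.15 across pC and 2293, 2565 and 2474 across H. Its HpC and pC libraries overlapped, and its difference was 1.48 ± 0.83 (adjusted p = 0.398). In HpC4 alone of the 10 libraries Kng2 was above Kng1. Of Kng2 windows 19.7% are shared with Kng1, and the call of Kng2 was lost when both were summed (log2 1.96; adjusted p = 0.173), with both HpC1 and HpC2 left out (1.99; 0.0659) and with only HpC and pC fitted (2.33; 0.0540). Klkb1, plasma prekallikrein, reached at most 0.267 outside H and stood at 0.000819, 5.17 and 3.12 in H1 to H3. It shares 42.7% of its windows with Gm45753, which stood at 90.7, 97.1 and 89.2 in H, so its level is uncertain.

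Hrg, which lies in the same cluster on chromosome 16 (22951072 to 22961656, plus strand), encodes histidine-rich glycoprotein, a plasma protein that binds plasminogen and heparin. It measured 19.3, 7.66, 9.51 and 0.408 across HpC, 5.34, 7.05 and 0.387 across pC and 780.2, 885 and 986 across H. HpC4 and pC3 were both far below the other cholangiocyte libraries, and the difference of 0.79 ± 0.85 did not pass (limma adjusted p = 0.678). The 3 genes of the cluster therefore stood in HpC4 at 7.80 (Kng2), 3.20 (Kng1) and 0.408 (Hrg), whereas in H the order was Kng1, Hrg, Kng2.

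In fibrinolysis, the removal of fibrin by plasmin, Cpb2 was higher in HpC. Its product, also called TAFI, slows fibrinolysis by trimming the lysines of fibrin to which plasminogen binds. Cpb2 (ENSMUSG00000021999, chromosome 14, 75242287 to 75283555, plus strand) measured 29.7, 12.5, 23.0 and 16.6 scaled TPM across HpC, 7.06, 5.66 and 4.49 across pC and 320.3, 384 and 336 across H. The groups did not overlap, and HpC exceeded pC by 1.62 ± 0.26 (limma adjusted p = 0.00748), which passed under every alternative tried. Serpinf2, the plasmin inhibitor, measured 24.1, 7.47, 13.8 and 2.23 across HpC, 3.48, 2.93 and 0.30 across pC and 508, 565 and 569 across H. HpC4 lay within the pC range, and the difference of 1.82 ± 0.64 did not pass (adjusted p = 0.163), though it did without HpC4 (2.34; 0.0289). Plg, plasminogen itself, spanned 6.27 to 51 in HpC, 1.83 to 14.2 in pC and 1416 to 1756 in H.

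Among secreted anticoagulants, Serpind1 was higher in HpC and the protein C pair had negative estimates that did not pass. Serpind1 encodes heparin cofactor II, an inhibitor of thrombin. Serpind1 (ENSMUSG00000022766, chromosome 16, 17331371 to 17343575, plus strand) measured 21.8, 7.50, 13.6 and 11.7 across HpC, 4.64, 2.33 and 0.654 across pC and 108, 91.6 and 85.7 across H. The difference was 2.13 ± 0.41 (limma adjusted p = 0.0170), and was lost without pC2 (0.0707) and with only HpC and pC fitted (0.0555). Serpinc1, antithrombin, the main thrombin inhibitor of plasma, spanned 1.53 to 33.2 in HpC, 0.935 to 7.54 in pC and 1103 to 1186 in H, and its difference of 1.27 ± 0.81 did not pass (adjusted p = 0.462). Only 1 of 8 annotated Serpinc1 transcripts is in the tables, and 58.8% of its windows also occur in the overlapping gene Zbtb37. Proz, a cofactor in the inhibition of factor X, spanned 0.840 to 6.23 in HpC, 0.416 to 1.83 in pC and 208 to 240.2 in H.

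Proc, protein C, which shuts down factors V and VIII once activated, measured 33.7, 15, 30.7 and 24.9 across HpC, 52.0, 47.7 and 30.4 across pC and 355, 372 and 371 across H. Its difference between HpC and pC was -0.73 ± 0.27 (limma adjusted p = 0.189). Pros1, protein S, the cofactor of protein C, measured 8.38, 4.83, 5.67 and 5.62 across HpC, 13.5, 12.6 and 9.33 across pC and 12.7, 20.2 and 20.5 across H. Its HpC libraries lay wholly below pC, and the difference of -0.86 ± 0.23 narrowly missed the threshold (adjusted p = 0.0677). Pros1 passed as lower in HpC without HpC1 (-1.002; 0.0351) and on TPM as deposited (-1.27; 0.0253). It was below H in HpC (-1.39 ± 0.23; 0.000415) but did not pass in pC (-0.53 ± 0.24; 0.0826), and only on TPM as deposited was the call in HpC lost (0.289).

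Tissue factor and its inhibitor were among the members higher in both cholangiocyte groups than in hepatocytes. F3, tissue factor, is the membrane receptor for factor VII that starts clotting. F3 (ENSMUSG00000028128, chromosome 3, 121723537 to 121735048, plus strand) measured 79.9, 180.3, 285 and 261 scaled TPM across HpC1 to HpC4, 90.3, 94.7 and 144.4 across pC1 to pC3 and 1.27, 2.08 and 2.38 across H1 to H3. It was the second most abundant member in both cholangiocyte groups, and every library of either lay above every H library. HpC exceeded H by 5.99 ± 0.40 (limma adjusted p = 8.08e-07) and pC exceeded H by 5.24 ± 0.43 (3.13e-06). HpC and pC overlapped through HpC1 and differed by 0.75 ± 0.40 (0.371). This difference passed when HpC1 was left out (1.142; 0.0406) and when HpC2 was left out as well (1.38; 0.0255).

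Tfpi, the inhibitor of the complex of tissue factor and factor VII, measured 67.0, 66.7, 3.31 and 62.2 across HpC1 to HpC4, 4.47, 9.59 and 3.74 across pC1 to pC3 and 0.723, 0.0451 and 0 across H1 to H3. HpC3 lay below all pC libraries, and the other 3 HpC libraries lay far above them. The HpC mean exceeded that of H by a log2 value of 4.78 ± 0.87 (limma adjusted p = 0.000866), and the difference from pC, 2.36 ± 0.87, did not pass (0.186). Without HpC3 that difference was 3.34 and passed (0.00194). The call of pC above H (2.42 ± 0.93; 0.046) was lost under 10 of 25 alternatives, among them the removal of any pC or any H library. Tfpi entered the comparisons with H only through cholangiocytes. The transcript Tfpi-201 held 33.7% of the Tfpi level in HpC. It stood at 16.3 to 31.6 deposited TPM in HpC1, HpC2 and HpC4, 0 in HpC3 and at most 0.347 in pC.

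Thbd, thrombomodulin, the membrane receptor through which thrombin activates protein C, measured 5.33, 45.7, 2.66 and 1.63 across HpC1 to HpC4, 0.212, 0.189 and 0.182 across pC and 0.0464, 0 and 0.0324 across H. All HpC libraries were above all others, and HpC2, the library with squamous transcripts, was highest. HpC minus pC, at 2.61 ± 0.79, missed the threshold (limma adjusted p = 0.106), which it passed once HpC2 was left out (1.74; 0.00965). The estimate was 2.83 ± 0.79 for HpC minus H (0.0106) and 0.22 ± 0.84 for pC minus H (0.838), in a gene that entered the test only through HpC. The summed level of mesothelial markers was likewise higher in every HpC library than in any pC library, as given above, and their part in the levels of Tfpi and Thbd was not tested.

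**Figure D4:**
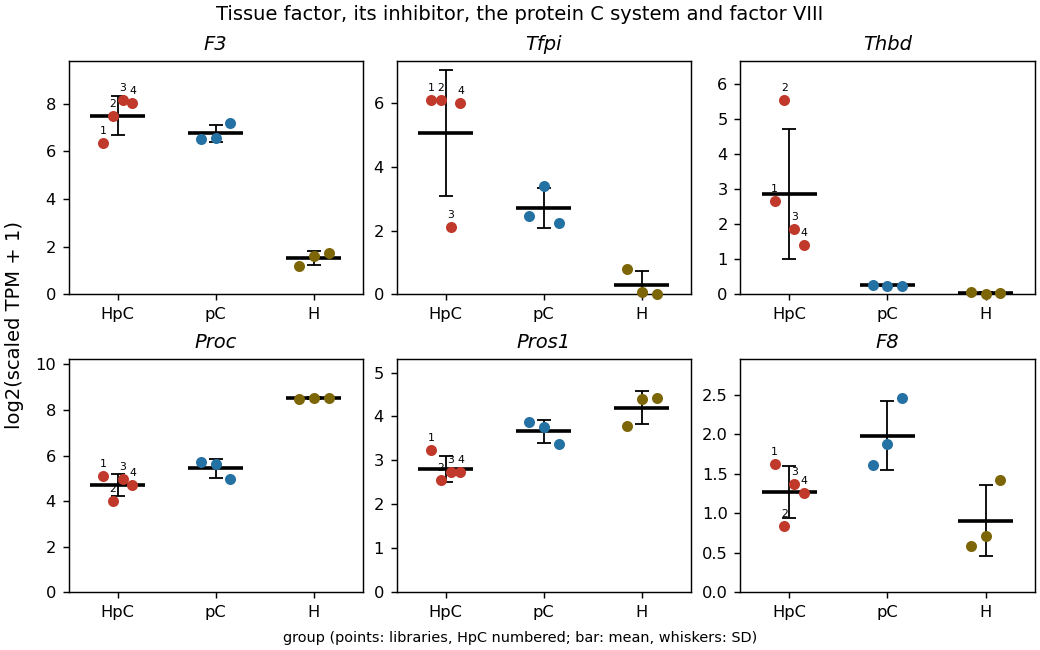
Log2(scaled TPM + 1) of F3, Tfpi, Thbd, Proc, Pros1 and F8 by group; points are libraries (HpC numbered 1 to 4), horizontal bars means and whiskers SD. HpC3 stands apart in the Tfpi panel at 2.11 on this scale, HpC2 is highest for Thbd, and HpC lies below pC for Pros1.

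The levels of members in cholangiocytes were also read as a percentage of the mean level in H, beside the 12 hepatocyte markers read the same way. The median marker was 3.95%, 1.21%, 1.92% and 0.140% of H across HpC1 to HpC4, and 0.945%, 1.23% and 0.190% across pC1 to pC3. HpC4 and pC3 thus had the lowest median marker of their groups, although Alb was at 4.97% in HpC4 and 4.58% in HpC2. Of 40 members with at least 10 scaled TPM in H, 10 stood above the highest of the 12 markers in every HpC library: Masp1, Serpind1, C3, Cfb, C4bp, Pros1, C1ra, C2, Serping1 and Cd59a. In pC, 8 did so in every library: Proc, Pros1, C1ra, C2, C3, Cfi, Serping1 and Cd59a. The 6 in both sets were Pros1, C1ra, C2, C3, Serping1 and Cd59a, of which 5 belong to complement. The share of all genes that stood above the markers was not counted, so whether these counts are particular to the members is unknown.

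Masp1 stood at 55.5%, 25.5%, 44.0% and 46.1% of its H level across HpC1 to HpC4, against 6.15%, 3.75% and 4.01% across pC1 to pC3. Serpind1 stood at 22.8%, 7.87%, 14.2% and 12.3% in HpC and at 4.87%, 2.45% and 0.686% in pC. In both genes, as in the marker Alb, the HpC4 value lay within the range of the other HpC libraries. The median marker was lower in HpC4 than in HpC1 to HpC3. The clotting factors behaved otherwise. F2 stood at 2.69%, 1.04%, 1.92% and 0.292% in HpC1 to HpC4, and Fgb at 3.10%, 1.23%, 2.39% and 0.401%, both inside the range of the markers in each library. Hrg in HpC4 stood at 0.0462%, below the lowest marker there, Apoc3, at 0.0612%. No test was made of the difference between members and markers.

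**Figure D5:**
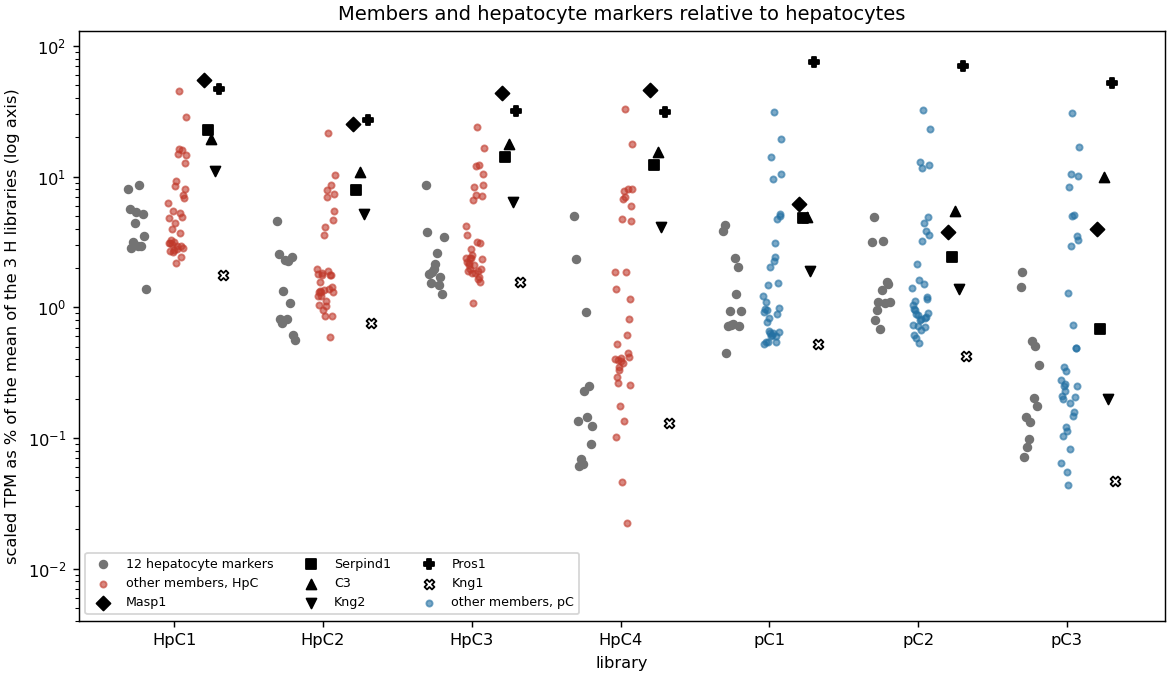
Scaled TPM of 12 hepatocyte markers (grey) and of the 40 members with at least 10 scaled TPM in H (coloured, and black symbols for 6 named genes) as a percentage of the H mean, on a log axis, in each HpC and pC library. In HpC4 Masp1 is at 46.1% and Kng1 at 0.130%, while the markers lie between 0.0612% and 4.97%.

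Other genes of the same systems were examined as lists. Of 17 other coagulation and fibrinolysis genes tested, 4 were higher in HpC than in pC and none was lower (limma; 7 and 1 at an unadjusted p under 0.05). Plat, tissue plasminogen activator, measured 11.1, 10.5, 19.9 and 14 scaled TPM across HpC, 0.604, 0.622 and 1.35 across pC and 0.0701, 0 and 0 across H (HpC minus pC 2.98 ± 0.23; limma adjusted p = 0.000212). Plau, the urokinase-type activator, averaged 12.4 ± 5.80 (SD, n = 4) in HpC and 1.34 ± 0.932 (n = 3) in pC (2.49 ± 0.34; adjusted p = 0.00343). Serpina10, the partner of protein Z against factor X, averaged 39.8 ± 8.16 and 7.42 ± 3.80 (2.38 ± 0.33; 0.00335). These 3 passed under every alternative tried, but Plat reached 1 TPM in fewer than 3 libraries outside HpC. Plat could thus be tested only through its level in HpC, and its part in the count of 4 is not evidence of a difference. The median over the 17 was 0.47.

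Of 16 other complement genes tested, none passed in either direction between HpC and pC, and the median was 0.08 (limma; 1 higher and 0 lower at an unadjusted p under 0.05). Vtn, vitronectin, averaged 203 in HpC, 127 in pC and 2141 in H. Of 7 genes of the vitamin K cycle and factor export, Ggcx, the carboxylase that modifies clotting factors, was higher in HpC (0.77 ± 0.14; limma adjusted p = 0.0143), a call lost under 4 of 25 alternatives (TPM as deposited, without pC2, without pC3 and with a replicate block; adjusted p up to 0.455). Pcsk5, a proprotein convertase, was lower (-1.01 ± 0.14; 0.00323). Of 19 acute phase protein genes, Hp, Steap4 and Lbp were higher and Crp was lower. The call of Lbp was lost on TPM as deposited, without pC1, without pC3 and with a replicate block (limma adjusted p up to 0.171), that of Steap4 without pC1 (0.0511) and that of Crp without pC2 (0.0525). Hp, haptoglobin, stood at 251, 109.7, 118.6 and 65.1 in HpC and at 15.1, 22.0 and 4.76 in pC (3.24 ± 0.50; 0.00571), and Crp, C-reactive protein, at 35.9, 16.8, 26.1 and 25 and at 78.5, 92.2 and 58.9 (-1.55 ± 0.26; 0.00832). None of 12 genes of acute phase signalling passed (median 0.28; limma, with 1 higher and 0 lower at an unadjusted p under 0.05).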

How the data were processed

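Transcript abundance was measured by single-end RNA-seq in 10 libraries. The authors deposited TPM per Ensembl transcript for 85276 transcripts in each library; per the submitters' processing notes, kallisto, DESeq and build mm10 were used, without versions or the role of each. TPM holds no read counts, so depth is unknown and no counting interval or limit of detection can be given.

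Transcripts were joined to genes through GENCODE M21 (81927 matched; 3349, with 4.22% to 9.06% of TPM, did not). TPM was summed per gene. The tests kept those reaching 1 TPM in 3 libraries or more, and libraries were rescaled by an unweighted trimmed mean of log ratios (30% and 5% trims; factors 0.499 to 1.61). Group means of log2(scaled TPM + 1) over all 10 libraries were compared by limma 3.58.1 in R 4.3.3 with a trended prior and Benjamini-Hochberg adjustment over 14765 genes at 5%; the fit was tested on simulated data. Fold changes on this scale understate changes of low genes. The members and lists were chosen with earlier results of these data known. Values in every library are given for members past the threshold between HpC and pC, the 3 most abundant of each group, those above H, the 6 largest differences that did not pass, and their neighbours in gene clusters; other genes are named where they passed and were among the 5 largest of their list, and some of these, with 1 of the promoter motifs searched, are not reported here. Shared sequence was counted over all 50-base windows of a gene's transcripts, with no regard to strand, which is not stated. Alternatives covered pseudocounts, filters, scaling, gene types, array weights, the prior, the groups fitted, a replicate block and the removal of libraries. 2 alternatives were chosen after seeing the data: summing genes that share windows, and leaving acinar and squamous genes out of the total. Tables were built in Python 3.11.15 and pandas 2.3.3, and plots in matplotlib 3.10.9.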

Additional observations from a re-analysis of the deposited data

Results flagged for a closer look

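Among the 4 HpC libraries, 1 library stood far from the others for 2 of the 47 members tested, where chance marks about 1 group in 20. For Tfpi, HpC3 stood at 2.11 on the log2(scaled TPM + 1) scale and the others at 5.98 to 6.09, so that the gap took up 0.973 of the whole range. For C1s1, HpC1 stood at 5.91 and the others at 4.73 to 4.90, a gap of 0.859 of the range. On TPM as deposited, HpC1 lay within the range of the other HpC libraries for this gene. Without HpC1 and HpC2 together C1s1 still differed from pC (log2 1.30, limma adjusted p = 0.00649).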

How the results depend on the processing

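Of the 8 members higher in HpC than in pC, Masp1 and Cpb2 passed under every alternative tried and none changed direction. The count of members higher was 5 on TPM as deposited, 17 with array weights and 5 with only the 2 groups fitted, and ran from 5 to 15 when each library was left out in turn. The count lower, 0 at first, was 1 with array weights and 1 on TPM as deposited, Pros1 in both. It ran from 0 to 1 over the left-out libraries. All genes lower were 377 at first, 966 with array weights and 408 on TPM as deposited, and ran from 133 to 447 over the left-out libraries. The 5 members higher in HpC than in H became 3 with a pseudocount of 5 and 3 with a minimum of 5 TPM. All genes higher went from 4528 to 4292 with that pseudocount and to 3449, of 10642 tested, with that minimum. The 5 members higher in pC than in H became 3 with that minimum and 3 with protein-coding transcripts only. They ran from 3 to 5 over the left-out libraries. All genes higher went from 4590 to 3577 of 10642 tested and to 4245 of 12359 tested. Over the left-out libraries they ran from 3931 to 5077. Counts of members lower than H stayed within 1.5 times the first count under all alternatives. On TPM as deposited, 6 members were higher and 38 lower than H in HpC, and 6 higher and 38 lower in pC. Of all 14765 genes, 7553 were then higher and 1519 lower in HpC, and 9361 higher and 1255 lower in pC. The cause of these shifts was not tested.

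Libraries of the same number had correlations of deviations of -0.046 to 0.084. Libraries of unlike number in different groups had -0.184 to 0.167. The labels do not say whether the numbers pair libraries, and correlations over so few libraries cannot settle it. With the replicate number as a block over libraries 1 to 3, 11 members were higher and 0 lower in HpC than in pC. Against H, 4 were higher and 41 lower in HpC, and 5 higher and 40 lower in pC. Of all 14406 genes tested there, 266 were higher and 307 lower in HpC than in pC. Against H, 4092 of these genes were higher and 4002 lower in HpC, and 4476 higher and 4151 lower in pC. The number of reads is unknown, so what depth limits cannot be stated. Levels below about 1 TPM, as for Cd55, Tfpi and Thbd in H, carry the least information, and the call of C3 between HpC and pC, lost in 12 alternatives, is the least certain of the 8.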
